A study of Homo sapiens with 10 samples.

Results

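The desmosome is a spot junction that couples the intermediate filaments of neighbouring cells. Its genes are described here as the 10 rows of a gene count table, 60898 rows in all, whose symbol is DSP, JUP, PKP1, PKP2, PKP3, DSG2, DSG3, DSC2, DSC3 or PERP. Each symbol stood on a single row, and all 10 passed the filter on low counts that left 21063 genes for testing. The libraries hold RNA of cells labelled as neural progenitor cells (NPC) and derived from H1, a long-established line of human embryonic stem cells, and the series concerns whether STAMBP, a deubiquitinase, is needed to keep such cells over time. There are 5 groups of 2 libraries, and all 10 library titles carry P3, a mark that the groups share. KO1 and KO2 are lines of genotype STAMBP-KO, and together they are called KO below (4 libraries). KO+STAMBP and KO+CFLAR are knockout cells that also carry STAMBP or CFLAR (CFLAR encodes c-FLIP, a regulator of caspase-8), and WT is the wild-type genotype. It is not stated in the labels to which of the knockout lines a construct was added, whether a line is 1 clone, or whether libraries of the same group are separate cultures. Every p-value thus reflects only how far these libraries spread, and that spread may be technical.

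In a desmosome, desmogleins (DSG) and desmocollins (DSC) are cadherins that bind across the gap between cells. Plakoglobin (JUP) and plakophilins (PKP) bind their tails, and desmoplakin (DSP) links this plaque to keratin filaments. Desmosomes are prominent in epidermis and heart muscle, whereas neuroepithelial progenitors are held together mainly by adherens junctions built on N-cadherin.

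Totals were 16495116 to 20832700 counts per library. Levels are given as TMM-scaled CPM (read counts of a gene per 1e+06 counts of its library), as mean ± SD with n = 4 libraries for KO and n = 2 for each other group, and 3 counts in a library correspond to 0.136 to 0.198 CPM. STAMBP, the targeted gene, stood at 16.9 to 19.6 CPM in the KO libraries, at 40.4 and 45.3 CPM in KO+STAMBP, at 42.9 and 40.1 CPM in libraries labelled KO+CFLAR, and at 43.4 and 47.2 CPM in WT. CFLAR stood at 246.6 to 264 CPM in KO, at 32.1 and 32.1 CPM in KO+STAMBP, at 31.4 and 29.4 CPM in libraries labelled KO+CFLAR, and at 34.2 and 30.4 CPM in WT. The libraries labelled KO+CFLAR therefore had neither the lower STAMBP level of the KO libraries nor a CFLAR level above WT, and the KO+STAMBP libraries did not exceed WT in STAMBP. No source used here says if construct reads were counted. Directions for both rescues rest on their labels. A fit that leaves out the libraries labelled KO+CFLAR, chosen after the data were seen, called the same numbers of members in the comparisons it could make: 10 higher in KO vs WT, 10 lower in KO+STAMBP vs KO and 5 higher in KO+STAMBP vs WT. Over all genes, either way, it called 15916 in KO vs WT, 16201 in KO+STAMBP vs KO and 7373 in KO+STAMBP vs WT. Such a fit cannot check the label of KO+STAMBP.

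The members moved together, so their promoters were searched for 3 motifs: CACCTG, the E-box bound by ZEB and SNAI repressors, TGANTCA, the AP-1 motif, and AACCNGTT, a grainyhead (GRHL) motif. Windows of 4 members are shown, those of DSP, DSG2 and JUP because they hold a pair of E-boxes and that of PERP because it alone holds the AP-1 motif. The windows run from 250 bases before to 50 bases after the RefSeq start (GRCh38.p14), are written 5′ to 3′ on the gene's strand, and carry the motif, read on either strand (CAGGTG is the reverse of CACCTG), in capitals.
DSP, chr6:7541421-7541720, plus strand: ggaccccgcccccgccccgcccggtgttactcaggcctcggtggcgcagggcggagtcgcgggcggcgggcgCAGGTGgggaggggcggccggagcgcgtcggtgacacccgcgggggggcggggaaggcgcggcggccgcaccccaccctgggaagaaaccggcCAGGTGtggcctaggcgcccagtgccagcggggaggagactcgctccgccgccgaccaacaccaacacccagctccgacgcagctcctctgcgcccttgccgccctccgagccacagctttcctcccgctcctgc
DSG2, chr18:31497927-31498226, plus strand: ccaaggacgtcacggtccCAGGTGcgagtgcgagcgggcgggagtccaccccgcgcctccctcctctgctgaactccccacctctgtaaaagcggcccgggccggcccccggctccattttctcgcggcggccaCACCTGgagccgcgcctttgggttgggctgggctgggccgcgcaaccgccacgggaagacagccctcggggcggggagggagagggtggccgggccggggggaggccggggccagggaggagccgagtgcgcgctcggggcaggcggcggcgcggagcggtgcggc
JUP, chr17:41785927-41786226, minus strand: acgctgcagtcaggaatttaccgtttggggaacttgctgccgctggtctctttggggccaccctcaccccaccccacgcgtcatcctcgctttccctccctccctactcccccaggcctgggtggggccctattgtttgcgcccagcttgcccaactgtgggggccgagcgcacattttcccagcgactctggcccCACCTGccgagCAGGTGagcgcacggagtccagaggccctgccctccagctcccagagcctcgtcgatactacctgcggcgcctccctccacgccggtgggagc
PERP, chr6:138107370-138107669, minus strand: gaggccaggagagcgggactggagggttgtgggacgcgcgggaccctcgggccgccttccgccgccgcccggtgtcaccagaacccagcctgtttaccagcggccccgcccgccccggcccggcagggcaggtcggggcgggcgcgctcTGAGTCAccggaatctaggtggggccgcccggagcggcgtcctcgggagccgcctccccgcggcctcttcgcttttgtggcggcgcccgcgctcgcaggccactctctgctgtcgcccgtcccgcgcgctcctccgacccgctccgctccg
In DSP, the E-box began at positions -178 and -85 from the start, in DSG2 at -232 and -116, and in this JUP window, 1 of 2 for the gene, at -54 and -43. Over the 10 windows of the 8 members found in the RefSeq table, 4 held the E-box (DSP, DSG2, 1 of 2 for DSC2 and 1 of 2 for JUP), against 20.59% of 35116 promoter windows. The AP-1 motif stood in 1 of the 10 windows, that of PERP at position -101, against 7.71% of all windows. On the gene's strand alone, the GRHL motif stood in 0 of 10, against 0.968%. No printed window held more than 1 of these motifs. Member windows ranged from 44.0% to 77.0% GC, against a median of 58.67%, and a match is a run of letters, not a measured binding site. PKP2 and PKP3 were not matched.

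All 10 desmosome genes were higher in KO than in WT, by 14.5-fold (PKP2) to 477-fold (PKP3). Summed, they came to 6972 ± 138 CPM in KO, 191 ± 3.77 CPM in KO+STAMBP, 174 ± 2.35 CPM in libraries labelled KO+CFLAR and 147 ± 7.07 CPM in WT. As a share of all counts this was 0.642% in KO, 0.0204% in KO+STAMBP, 0.0184% in KO+CFLAR and 0.0153% in WT. The median log2 change over the members was 5.75, against -0.04 over all tested genes. Of the tested genes, 36.8% were called higher and 39.4% lower in this comparison (edgeR's quasi-likelihood test, adjusted p under 0.05), so the count of 10 calls stands against a wide change of the transcriptome, and the size of the changes is given by rank: PKP3 was 115th of 21063 genes ordered by log2 change, and PKP2, with the smallest change of the members, was 1177th. For every member the lowest KO library exceeded the highest library of the other groups, by 10.7-fold for PKP2 to 267-fold for PKP3. The share of all tested genes that separate in this way was not counted, so this describes the members alone and does not set them apart. In bulk RNA, fewer cells of a type and less RNA per cell cannot be told apart.

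**Figure D1:**
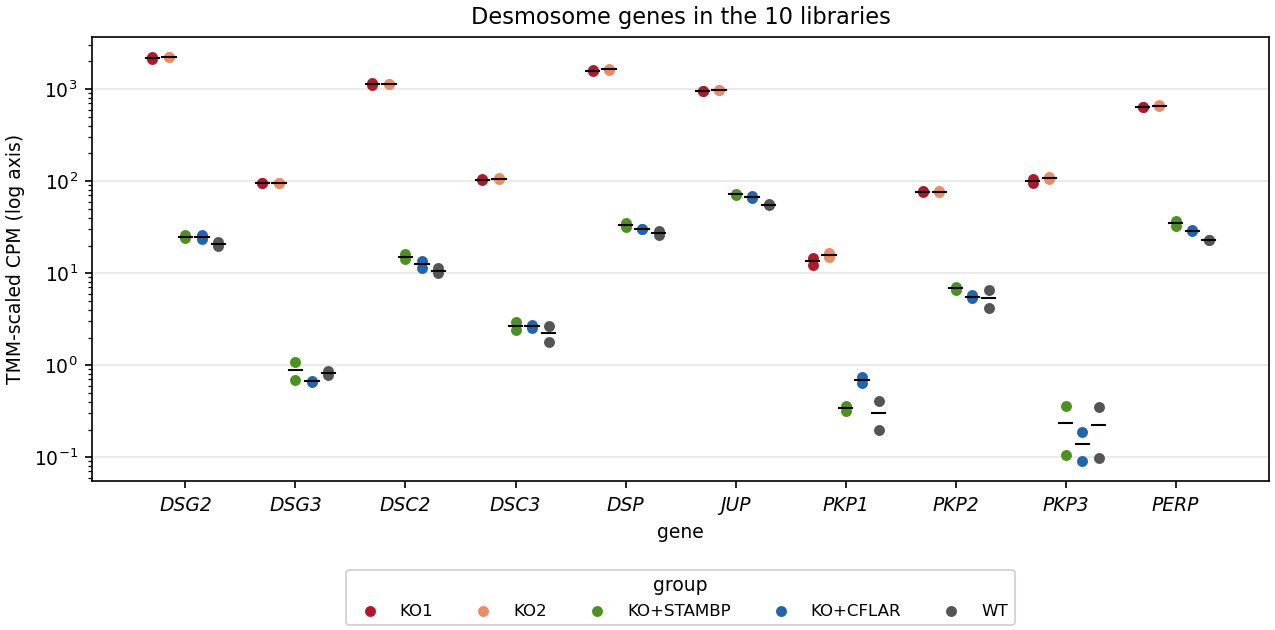
Level of each desmosome gene in each library, in TMM-scaled CPM on a log axis, by group; points are libraries and bars are group means. In every gene shown the 4 KO libraries lie above all others, with DSG2 highest at 2117 to 2240 CPM and PKP1 lowest at 12.3 to 16.6 CPM. The share of all tested genes that do so was not counted.

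Among the cadherins, DSG2 is the desmoglein of simple epithelia and heart muscle. DSG2 (ENSG00000046604, chromosome 18, 31498043 to 31549008, plus strand, GRCh38) was at 2239 and 2117 CPM in KO1, 2211 and 2240 CPM in KO2, 25.9 and 23.9 CPM in KO+STAMBP, 25.8 and 23.7 CPM in libraries labelled KO+CFLAR, and 21.8 and 19.8 CPM in WT. The KO libraries stood apart from the rest and overlapped between the lines, and its log2 change in KO vs WT was 6.73 ± 0.06 (SE, edgeR adjusted p = 6.45e-19). DSG3, the main adhesive target in pemphigus vulgaris and a gene of stratified epithelium (ENSG00000134757, chromosome 18, 31447795 to 31478702, plus strand), was at 94.4 and 96.1 CPM in KO1, 95.3 and 95.7 CPM in KO2, 1.08 and 0.695 CPM in KO+STAMBP, 0.652 and 0.680 CPM in KO+CFLAR, and 0.873 and 0.782 CPM in WT. KO+STAMBP and WT overlapped, both libraries labelled KO+CFLAR lay just below them, and each of these 6 libraries held only 13 to 21 counts of DSG3. Its log2 change in KO vs WT was 6.84 ± 0.11 (edgeR adjusted p = 2.43e-16).

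DSC2, the most widely expressed desmocollin (ENSG00000134755, chromosome 18, 31058840 to 31102522, minus strand), was at 1158 and 1109 CPM in KO1, 1142 and 1152 CPM in KO2, 16.1 and 14.2 CPM in KO+STAMBP, 13.7 and 11.4 CPM in libraries labelled KO+CFLAR, and 11.4 and 9.93 CPM in WT. Its KO libraries were far above the rest, and the libraries of KO+STAMBP lay above both of WT. The log2 change in KO vs WT was 6.75 ± 0.07 (edgeR adjusted p = 3.19e-18). DSC3, a desmocollin of basal stratified epithelium (ENSG00000134762, chromosome 18, 30990008 to 31042815, minus strand), was at 105 and 103 CPM in KO1, 107 and 107 CPM in KO2, 2.94 and 2.41 CPM in KO+STAMBP, 2.56 and 2.72 CPM in KO+CFLAR, and 2.68 and 1.81 CPM in WT. The 3 groups outside KO overlapped, and the log2 change in KO vs WT was 5.57 ± 0.10 (edgeR adjusted p = 8.89e-16).

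In the plaque, desmoplakin is the obligate link to intermediate filaments. DSP (ENSG00000096696, chromosome 6, 7541575 to 7586717, plus strand) was at 1598 and 1577 CPM in KO1, 1630 and 1645 CPM in KO2, 34.9 and 32.1 CPM in KO+STAMBP, 30.5 and 30.03 CPM in KO+CFLAR, and 29.04 and 25.8 CPM in WT. KO2 lay slightly above KO1, KO+STAMBP above the other low groups, and the log2 change in KO vs WT was 5.88 ± 0.05 (59.0-fold, edgeR adjusted p = 6.72e-19). JUP, which serves in both desmosomes and adherens junctions (ENSG00000173801, chromosome 17, 41754604 to 41786931, minus strand), was at 966 and 947 CPM in KO1, 989 and 988 CPM in KO2, 72.3 and 71.4 CPM in KO+STAMBP, 66.5 and 68.7 CPM in KO+CFLAR, and 55.5 and 56.0 CPM in WT. It had the highest WT level of the members, its groups of low level did not overlap one another, and its log2 change in KO vs WT was 4.12 ± 0.04 (17.4-fold, edgeR adjusted p = 7.96e-19).

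The plakophilins differed most among themselves. PKP3, which in epithelia binds many other desmosomal proteins (ENSG00000184363, chromosome 11, 392614 to 404908, plus strand), was at 106 and 96.5 CPM in KO1, 105 and 111 CPM in KO2, 0.361 and 0.107 CPM in KO+STAMBP, 0.186 and 0.0907 CPM in KO+CFLAR, and 0.349 and 0.0978 CPM in WT. Outside KO it rested on 2 to 7 counts per library, so the log2 change of 8.90 ± 0.18 (edgeR adjusted p = 2.85e-15) has a loosely fixed size, from 8.20 to 9.96 over the alternatives run. PKP2, the plakophilin of heart and simple epithelia (ENSG00000057294, chromosome 12, 32790745 to 32896840, minus strand), was at 77.8 and 76.4 CPM in KO1, 77.5 and 76.3 CPM in KO2, 7.12 and 6.52 CPM in KO+STAMBP, 5.36 and 5.76 CPM in KO+CFLAR, and 6.58 and 4.21 CPM in WT. Its WT libraries spanned those of KO+CFLAR, and its log2 change in KO vs WT was 3.86 ± 0.11 (edgeR adjusted p = 1.38e-13). PKP1, a plakophilin of stratified epithelium (ENSG00000081277, chromosome 1, 201283452 to 201332993, plus strand), was at 14.8 and 12.3 CPM in KO1, 15.2 and 16.6 CPM in KO2, 0.361 and 0.321 CPM in KO+STAMBP, 0.745 and 0.635 CPM in KO+CFLAR, and 0.407 and 0.196 CPM in WT. Both libraries labelled KO+CFLAR lay above all of KO+STAMBP and WT, on 14 and 16 counts, and the log2 change in KO vs WT was 5.62 ± 0.25 (edgeR adjusted p = 3.61e-11).

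PERP, a tetraspan membrane protein that mouse studies tie to desmosome assembly and a p53 and p63 target (ENSG00000112378, chromosome 6, 138088505 to 138107511, minus strand), was at 633 and 643 CPM in KO1, 649 and 666 CPM in KO2, 32.8 and 36.8 CPM in KO+STAMBP, 29.5 and 28.4 CPM in libraries labelled KO+CFLAR, and 23.1 and 23.1 CPM in WT. No group overlapped another: KO2 lay highest, then KO1, KO+STAMBP, KO+CFLAR and WT. The log2 change in KO vs WT was 4.81 ± 0.05 (28.0-fold, edgeR adjusted p = 4.2e-18).

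Each knockout line gave the whole result by itself. In KO1 vs WT, 10 of 10 members were higher (35.6% of all tested genes were) with log2 changes of 3.86 to 8.85, and in KO2 vs WT 10 of 10 were higher (35.8% of all tested genes were) with 3.86 to 8.94. Both comparisons share the WT libraries. KO1 vs KO2 called 0 members (0.157% of all tested genes were called either way), and 0 members had an unadjusted p under 0.05 in edgeR; DESeq2 called 0 as well. The log2 differences KO1 vs KO2 ranged from -0.23 ± 0.16 (PKP1) to 0.00 ± 0.08 (PKP2), and a test that misses the threshold does not show that the lines are alike.

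Levels can be compared between genes only per length, here CPM per kilobase of exon union (GENCODE release 29). In KO the order was DSG2 at 356 ± 9.38, JUP at 217 ± 4.48, DSP at 165 ± 3.14, PERP at 151 ± 3.24, DSC2 at 91.3 ± 1.75, PKP3 at 32.3 ± 1.85, DSG3 at 17.3 ± 0.131, DSC3 at 14.9 ± 0.292, PKP2 at 13.0 ± 0.129 and PKP1 at 2.70 ± 0.334 CPM per kb. In WT the order was JUP at 12.4 ± 0.0914, PERP at 5.38 ± 0.0033, DSG2 at 3.36 ± 0.235, DSP at 2.80 ± 0.232, PKP2 at 0.913 ± 0.284, DSC2 at 0.854 ± 0.0839, DSC3 at 0.318 ± 0.087 and DSG3 at 0.150 ± 0.0116 CPM per kb, with PKP3 at 0.069 ± 0.0549 and PKP1 at 0.0554 ± 0.0275. In KO all neighbours in this order were separated by more than their spread, but the order depends on the length used: per kb of the longest coding transcript PKP2 was at 18.2 ± 0.18 in KO, above DSG3 at 17.3 ± 0.131 and DSC3 at 15.2 ± 0.297. In WT, PKP2 and DSC2 were not, nor were PKP3 and PKP1. DSC2 has a long exon union of 12495 bases, which lowers its level per kb.

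Shares were taken within the desmogleins (DSG1 to DSG4), the desmocollins (DSC1 to DSC3) and the desmosomal plakophilins PKP1, PKP2 and PKP3. PKP4, which is also found at adherens junctions, was left out of that last class. Among these 3 plakophilins the leading gene differed between groups. PKP3 made up 67.2% ± 0.81 of their summed level per kb in KO, 5.41% ± 3.75 in KO+STAMBP, 3.86% ± 1.92 in libraries labelled KO+CFLAR and 6.10% ± 3.14 in WT. PKP2 made up 27.2% ± 1.24 in KO, 89.7% ± 3.66 in KO+STAMBP, 84.7% ± 3.35 in KO+CFLAR and 88.7% ± 3.95 in WT. With PKP4 counted in, an alternative chosen after the data were seen, PKP3 made up 50.4% ± 1.24 in KO and 0.552% ± 0.402 in WT, PKP2 20.4% ± 0.737 in KO and 7.47% ± 1.65 in WT, and PKP4 25.0% ± 1.08 in KO, 89.5% ± 1.14 in KO+STAMBP, 90.3% ± 0.424 in KO+CFLAR and 91.5% ± 2.23 in WT. PKP3 then still led in KO, but PKP4 and not PKP2 led in the other groups. Without a length correction, and among the 3 genes, PKP3 also led in KO, at 53.2% against 39.3% for PKP2. With 4 libraries against 2 there are 15 relabellings, so no exact test could reach 0.05 and none is given. The desmogleins and desmocollins kept their leading genes: DSG2 made up 95.3% ± 0.146 of the desmoglein level in KO, 86.2% ± 0.146 in KO+STAMBP, 91.0% ± 0.956 in KO+CFLAR and 90.2% ± 1.26 in WT. DSC2 made up 85.5% ± 0.108 of the desmocollin level in KO, 72.3% ± 3.82 in KO+STAMBP, 65.3% ± 3.84 in KO+CFLAR and 70.8% ± 2.30 in WT.

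**Figure D2:**
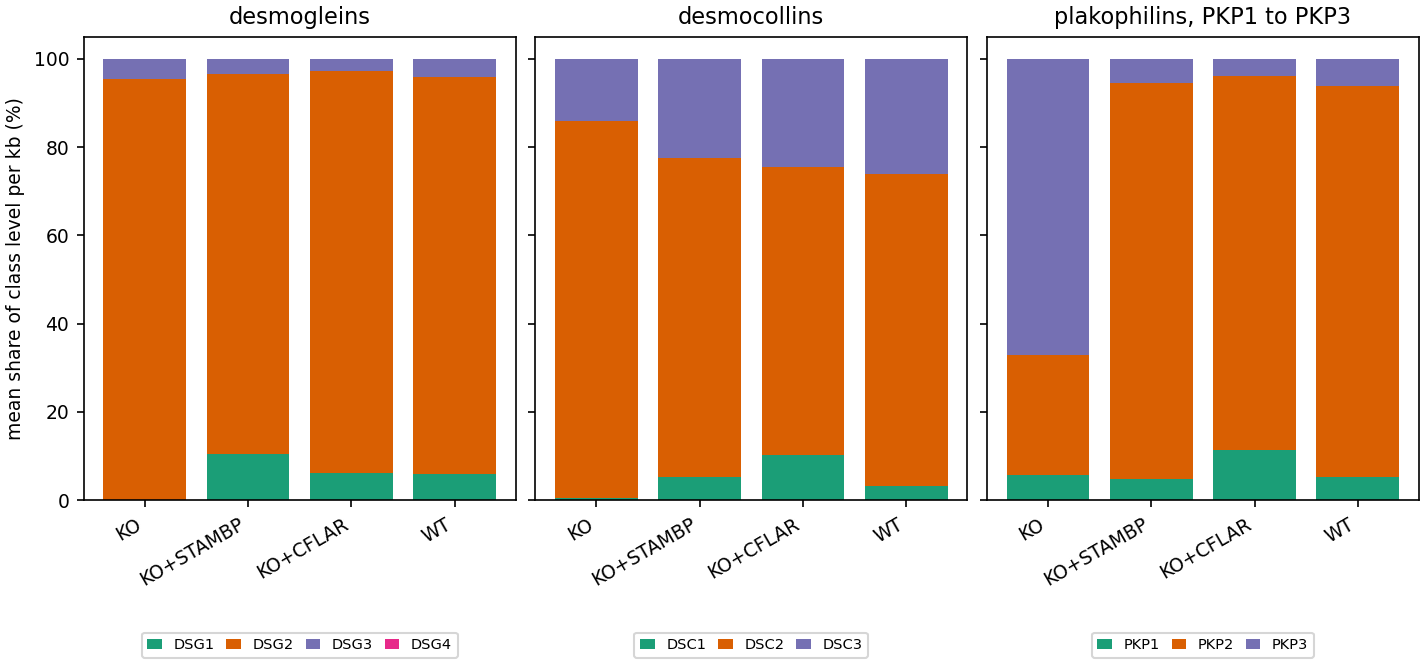
Mean share of each gene in the summed level per kilobase of its protein class, in percent, by group; the plakophilin bar holds PKP1, PKP2 and PKP3 and leaves out PKP4. PKP3 fills 67.2% of that bar in KO and 6.10% in WT, while DSG2 and DSC2 lead their classes in all groups.

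The rescues were set against KO next. In KO+STAMBP vs KO, 10 of 10 members were lower (37.8% of all tested genes were) with a median log2 change of -5.49, against 0.04 over all tested genes. For the libraries labelled KO+CFLAR against KO, 10 of 10 were lower as well (38.0% of all tested genes were), with a median of -5.53. These comparisons share the KO libraries. DSP fell by 5.59 in KO+STAMBP and by 5.74 in KO+CFLAR on the log2 scale, and DSG2 fell by 6.465 in KO+STAMBP and fell by 6.477 in KO+CFLAR. As a share of the log2 distance between KO and WT, the return in KO+STAMBP ran from 87.7% (PERP) to 98.3% (PKP3 and DSG3). In the libraries labelled KO+CFLAR it ran from 78.3% (PKP1) to 107% (PKP3), where over 100% is an estimate below WT. Both ends rest on few counts: PKP1 had 30 in KO+CFLAR and 11 in WT, and PKP3 had 6 and 8. The PKP3 difference from WT was not called (log2 -0.60 ± 0.81, edgeR adjusted p = 0.63).

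Against WT the rescues kept small excesses. In KO+STAMBP vs WT, 5 members were higher and 0 lower (16.4% of all tested genes were higher). JUP was higher by 0.37 ± 0.04 on the log2 scale (edgeR adjusted p = 6.79e-06), PERP by 0.59 ± 0.06 (5.01e-06), DSC2 by 0.52 ± 0.10 (0.00121), DSP by 0.29 ± 0.06 (0.00163) and DSG2 by 0.27 ± 0.07 (0.00948). In the libraries labelled KO+CFLAR vs WT, 4 members were higher and 0 lower (15.8% of all tested genes were higher). JUP was higher by 0.28 ± 0.04 (edgeR adjusted p = 9.05e-05), PERP by 0.33 ± 0.06 (0.00112), DSG2 by 0.25 ± 0.07 (0.0114) and PKP1 by 1.22 ± 0.42 (0.0362). The PKP1 call was lost with DESeq2 (adjusted p = 0.0659), without a filter on low counts (0.0619), with only the groups compared (0.114), without KO+CFLAR replicate 1 (0.146) or 2 (0.0674), and without WT replicate 2 (log2 0.75, adjusted p = 0.37). The DSG2 call in KO+STAMBP was lost without KO+STAMBP replicate 1 (adjusted p = 0.0974) and without WT replicate 2 (0.121), and that in KO+CFLAR without KO+CFLAR replicate 1 (0.0951) and without WT replicate 2 (0.148).

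The rescues were also compared directly. KO+CFLAR vs KO+STAMBP called 0 members in edgeR (1.09% of all tested genes were called either way), while 5 had an unadjusted p under 0.05. The nearest to the threshold was PERP, with a log2 difference of -0.26 ± 0.06 (edgeR adjusted p = 0.056), which DESeq2 called lower (adjusted p = 0.00705). DSP and DSC2, called above WT in KO+STAMBP alone, differed between the rescues by -0.15 ± 0.06 and -0.28 ± 0.10 (edgeR adjusted p = 0.305 and 0.232).

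**Figure D3:**
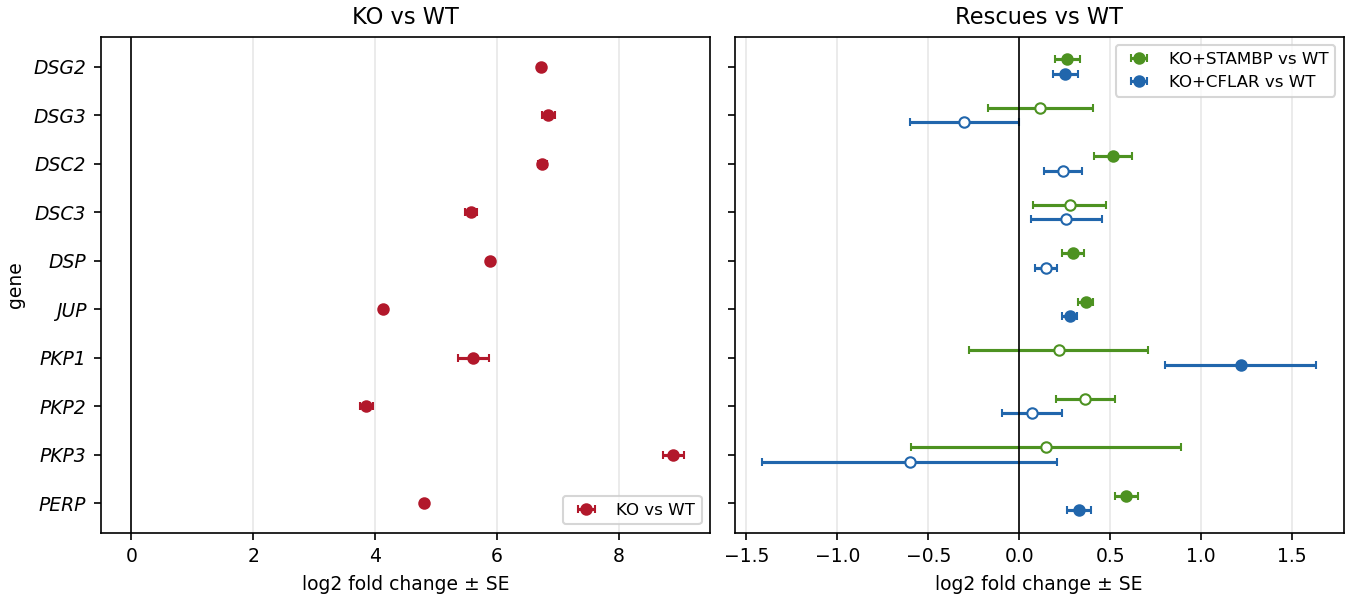
Log2 fold change ± SE of each member in KO vs WT (left) and in each rescue vs WT (right), from edgeR; filled points are called at an adjusted p under 0.05. Changes in KO run from 3.86 to 8.90, and called excesses in the rescues from 0.25 to 1.22.

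The 4 cadherin members lie together on chromosome 18, in a cluster of 7 desmosomal cadherin genes that spans 559001 bases (30990008 to 31549008, GRCh38). DSC3, DSC2 and DSC1 lie on the minus strand, and DSG1, DSG4, DSG3 and DSG2 follow on the plus strand. The genes of the cluster that are not members, and the neighbours, were taken up after their values were seen. DSC1, a desmocollin of upper epidermis, was at 2.44 ± 0.261 CPM in KO and 0.156 ± 0.056 CPM in WT (log2 3.88 ± 0.51, edgeR adjusted p = 6.64e-06). DSG4, a desmoglein of the hair shaft, had 45 counts in KO and 0 in all other libraries, at least 8.56-fold higher in KO than in WT with 3 counts over the group as the floor.

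DSG1, the desmoglein of upper epidermis, did not follow its neighbours. DSG1 was at 0.633 ± 0.174 CPM in KO, 2.55 ± 0.0274 CPM in KO+STAMBP, 1.45 ± 0.385 CPM in libraries labelled KO+CFLAR and 1.13 ± 0.199 CPM in WT. Its log2 change in KO vs WT was -0.83 ± 0.35 (edgeR adjusted p = 0.0448), a call lost with median-of-ratios factors (0.051) and with DESeq2 (0.127). TTR, which encodes the thyroid hormone carrier of choroid plexus and liver and starts 8001 bases past the end of DSG2, had 1 count in KO, and stood at 330 ± 2.52 CPM in KO+STAMBP, 292 ± 6.57 CPM in KO+CFLAR and 19.1 ± 1.11 CPM in WT. B4GALT6, the next gene, was at 15.1 ± 0.992 CPM in KO and 25.7 ± 0.111 CPM in WT (log2 -0.76 ± 0.07, edgeR adjusted p = 2.31e-07). DSG2-AS1, which overlaps DSG2 on the other strand, had 191 counts in KO and 2 in WT, and since the strand setting is not given its reads cannot be told apart from those of DSG2. The same holds for DSCAS, which overlaps DSC2 and had 5 counts in KO and 0 in WT.

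**Figure D4:**
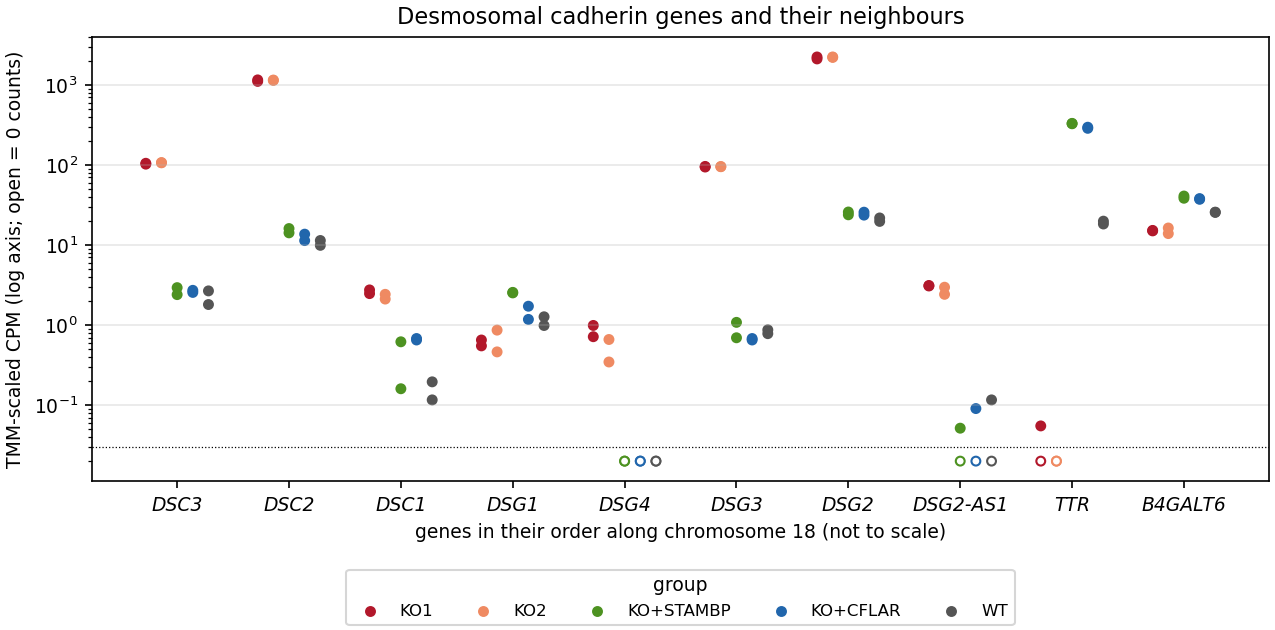
Level of the desmosomal cadherin genes and their neighbours in each library, in TMM-scaled CPM on a log axis, with genes in their order along chromosome 18 and open points for libraries with 0 counts. DSC3, DSC2, DSG3 and DSG2 are higher in all KO libraries, DSG1 is not, and TTR had 1 count in the KO libraries together.

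Of 6 tested further desmosome genes, 5 were higher and 1, DSG1, was lower in KO than in WT (median log2 5.25, or 3.49 with DSG4 at its bound). For this list and those below, counts in KO vs WT stand against 36.8% of all tested genes called higher and 39.4% called lower. CDSN, a corneodesmosome gene of 6 counts in KO, did not pass the filter. PPL and EVPL, plakins that bind keratin at the desmosome, were at 441 ± 13.9 and 29.8 ± 2.40 CPM in KO, against 3.14 ± 0.0849 and 0.288 ± 0.0774 CPM in WT. PKP4, a relative of the plakophilins also found at adherens junctions, was at 95.1 ± 3.01 CPM in KO and 65.7 ± 4.57 CPM in WT (log2 0.54 ± 0.05, edgeR adjusted p = 1.56e-07).

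The keratins are what desmosomes anchor. Of 12 keratin and other intermediate filament genes, 9 were higher and 1 was lower in KO (median log2 4.93, or 4.58 with genes of at most 3 counts at their bound or counting ratio). KRT8, KRT18 and KRT19, keratins of simple epithelium, stood at 2557 ± 87.4, 1332 ± 25.5 and 1299 ± 35.2 CPM in KO, against 15.2 ± 0.0544, 5.69 ± 0.88 and 0.667 ± 0.0443 CPM in WT. KRT7 had 23174 counts in KO and 1 in WT, a ratio of 13220 (95% counting interval 2373 to 522400). KRT5, a keratin of basal stratified epithelium, was not called (log2 -0.40 ± 0.27, edgeR adjusted p = 0.194), and KRT14, its usual partner, had 62 counts in KO and 0 in WT. NES, the intermediate filament gene of neural progenitors, was lower by -0.23 ± 0.03 (edgeR adjusted p = 3.68e-06).

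Of 12 adherens junction genes, 8 were higher and 3 lower in KO (median log2 1.36, with 36.8% of all tested genes called higher and 39.4% lower). CDH1, encoding E-cadherin, was at 1146 ± 43.2 CPM in KO and 7.46 ± 0.39 CPM in WT, and CDH3, encoding P-cadherin, at 201 ± 3.89 CPM in KO and 11.7 ± 1.16 CPM in WT. NECTIN4, an epithelial nectin, was at 156 ± 3.56 CPM in KO and 0.156 ± 0.056 CPM in WT. The 3 lower genes were CDH2, encoding N-cadherin, at 203 ± 1.16 CPM in KO and 659 ± 0.818 CPM in WT, and CTNND2 and CTNNA2, catenins of neural tissue, with log2 changes of -6.09 ± 0.05 and -4.80 ± 0.09. Of 9 hemidesmosome genes, which anchor epithelial cells to the basement membrane, 9 were higher and 0 lower (median log2 2.57), with COL17A1 at 9.91 ± 0.11, ITGB4 at 7.75 ± 0.14 and LAMB3 at 5.91 ± 0.12 on the log2 scale.

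Of 16 genes encoding regulators of junction genes or of epithelial state, 14 were higher and 2 lower in KO (median log2 6.87). KLF5 and KLF4, zinc finger factors of epithelia, were at 247 ± 4.94 and 122 ± 3.91 CPM in KO, against 2.54 ± 0.139 and 0.838 ± 0.198 CPM in WT. ESRP1, an epithelial splicing factor, was at 184 ± 2.31 CPM in KO and 0.258 ± 0.119 CPM in WT, and GRHL3, a grainyhead factor, at 61.7 ± 0.982 CPM in KO and 0.107 ± 0.0131 CPM in WT. The 2 lower genes were ZEB1 and ZEB2, repressors whose known motif is the E-box CACCTG. Of the 10 member windows 4 held that motif, against 20.59% of all promoter windows. Binding of ZEB1 and ZEB2 was not measured, and a part in the change of the members was not tested. ZEB1 was at 15.7 ± 2.11 CPM in KO, 64.2 ± 0.491 CPM in KO+STAMBP, 70.4 ± 3.17 CPM in libraries labelled KO+CFLAR and 151 ± 0.606 CPM in WT. ZEB2 was at 34.5 ± 2.32 CPM in KO, 246.5 ± 3.86 CPM in KO+STAMBP, 240 ± 16.7 CPM in KO+CFLAR and 103 ± 3.54 CPM in WT. SNAI1 and SNAI2, which bind the same motif, were among the higher genes (log2 4.28 ± 0.31 and 2.12 ± 0.11). Of 10 tested genes of desmosome turnover and modification, 8 were higher and 2 lower (median log2 1.71), with SFN, the epithelial 14-3-3 protein, at 10.4 ± 0.12, the protease MMP9 at 10.2 ± 0.13 and EGFR at 3.91 ± 0.06, while PRKCA, a kinase that loosens desmosomes, was at -3.28 ± 0.05 and PRMT1 at -0.13 ± 0.04.

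Cell type markers also differed between KO and WT, some lists in the direction of the desmosome genes and some against it. Their part in the result was not tested. Of 10 epithelium markers 9 were higher and 0 lower in KO than in WT (median log2 7.45), and their summed level was 7726 to 8183 CPM in KO, 63.5 to 65.0 CPM in KO+STAMBP, 54.8 to 56.9 CPM in KO+CFLAR and 33.2 to 35.0 CPM in WT, where KRT14 had 0 counts. That list shares KRT5, KRT8, KRT14, KRT18 and KRT19 with the keratins, CDH1 with the adherens junction genes and TP63 with the regulators. Of 12 neural progenitor markers 2 were higher and 9 lower (median log2 -2.38), with summed levels of 3512 to 3544 CPM in KO, 4159 to 4164 CPM in KO+STAMBP, 4309 to 4354 CPM in KO+CFLAR and 7779 to 7886 CPM in WT. Most of the KO sum was VIM, at 2259 ± 12.3 CPM in KO, 1333 ± 16 CPM in KO+STAMBP, 1315 ± 32.1 CPM in KO+CFLAR and 2160 ± 104 CPM in WT. VIM was not called in KO vs WT in the fit reported, but its call and its direction changed with the scaling. Library size alone called it lower (log2 -0.111, edgeR adjusted p = 0.00251). Median-of-ratios factors called it higher (0.093, edgeR adjusted p = 0.0108), as did DESeq2 (0.093, DESeq2 adjusted p = 0.00494). SOX2, a transcription factor of neural progenitors, was at 28.4 ± 1.36 CPM in KO and 297 ± 0.425 CPM in WT, and FABP7, of radial glia, at 0.446 ± 0.238 CPM in KO and 1124 ± 41.1 CPM in WT. Another 3 markers of the labelled cell type differed less: PAX6 was at 208 ± 3.95 CPM in KO and 181.5 ± 0.119 CPM in WT, HES1 at 61.9 ± 0.832 CPM in KO and 54.3 ± 2.24 CPM in WT, and NES at 661 ± 10.2 CPM in KO and 774 ± 4.75 CPM in WT. The 2 higher genes, PAX6 and HES1 (log2 0.20 ± 0.03 and 0.19 ± 0.05), were not called when scaled by library size alone.

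Of 9 neuron markers 0 were higher and 9 lower in KO (median log2 -3.92), with summed levels of 821 to 844 CPM in KO, 5589 to 5648 CPM in KO+STAMBP, 5628 to 5724 CPM in KO+CFLAR and 3881 to 3957 CPM in WT. Of 5 tested markers of heart muscle, which also builds desmosomes, 1 was higher and 3 lower (median log2 -3.04), at summed levels of 5.31 to 6.15 CPM in KO, 19.6 to 20.2 CPM in KO+STAMBP, 22.7 to 24.5 CPM in KO+CFLAR and 15.5 to 17.1 CPM in WT, where MYL7 had 0 counts. The higher one was TNNT2, a cardiac troponin, with 113 counts in KO and 2 in WT (ratio 32.2, 95% counting interval 8.72 to 269.5), and MYL7 had 32 counts in KO. Meningeal and fibroblast markers were higher in 4 and lower in 2 of 6 (median log2 1.85), at 2078 to 2165 CPM in KO, 104 to 105 CPM in KO+STAMBP, 80.4 to 84.5 CPM in KO+CFLAR and 103 to 106 CPM in WT. COL1A1 rose (log2 7.28 ± 0.05), DCN fell by 7.88 ± 0.27, and SLC22A6 had 0 counts in both KO and WT. Pluripotent cell markers were higher in 3 and lower in 0 of 4 tested (median log2 1.72). They summed to 23.9 to 27.3 CPM in KO, 2.67 to 2.79 CPM in KO+STAMBP, 1.41 to 2.89 CPM in KO+CFLAR and 2.39 to 3.18 CPM in WT. Most of the KO sum was LIN28A (log2 5.35 ± 0.24 in KO vs WT), while POU5F1 was not called (log2 -0.44 ± 0.37, edgeR adjusted p = 0.292).

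Patterns over the 5 group means of log2 CPM were compared by Euclidean distance after centring each gene, as a description. The member with the closest neighbour was PERP, with RRAS, a RAS-related GTPase, at a distance of 0.0795. JUP lay nearest to BMF (0.102), DSG2 to CAV2 (0.108), PKP2 to APCDD1L (0.121), DSP to ADRB1 (0.18), PKP1 to LYPD3 (0.182), DSC2 to EPS8L2 (0.19), PKP3 to AQP3 (0.207) and DSG3 to IL6R (0.212). Among the members themselves, DSG2 and DSC2 were each the third nearest gene to the other, at 0.22, and no other member had a member among its 3 nearest genes.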

How the data were processed

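RNA was extracted with Trizol and libraries were made with a TruSeq kit, per the labels' protocols. The deposited table holds unnormalized read counts, all whole numbers. Tools named by the submitters' processing notes, in no stated role, are DESeq2, RSEM 1.2.4 and fastp 0.20.0, and the genome is given there as both GRCh38 and hg38. Whether estimated counts were rounded, the annotation release and the strand setting are not given in the sources used here. Of the rows, 8314 carry MSTRG locus names, 4 of them members (JUP, DSG2, DSC2, DSP), which may join reads of overlapping transcripts; 667 have no Ensembl identifier and hold 0.33% of counts. Within groups, chi-square per gene between libraries was 1.95 to 3.59, so no pair was treated as 1 library.

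Counts were fitted with edgeR 4.0.16 in R 4.3.3 (filterByExpr, TMM, 1 mean per group over all 10 libraries, 5 residual degrees of freedom, quasi-likelihood F test, Benjamini-Hochberg over 21063 genes, called under 0.05), after a test on simulated data. KO is the equal-weight mean of KO1 and KO2. The SE is the size of the log2 change divided by the root of F. Alternatives were DESeq2 1.42.0, other factors, other filters, other sets of libraries and the replicate block. Counting intervals and floors cover counting error only. Positions and lengths come from GENCODE release 29 and promoters from RefSeq.

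The members, lists and alternatives were chosen with earlier results of these data known. Named genes are the members, STAMBP and CFLAR, from each list up to 4 genes by smallest adjusted p in KO vs WT plus those called against the list's majority, and each member's nearest genes. The rule names PKP4, DSC1 and DSG1 as well. The others (KRT5, KRT6A, KRT14, KRT17, VIM, SNAI1, SNAI2, genes listed at 0 and the remaining genes of the chromosome 18 cluster) were chosen after their values were seen. The shares with PKP4 and the account of the cluster were also chosen then. A few genes that the rule names are not reported here. The labels tie no batch to R1 and R2.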

Additional observations from a re-analysis of the deposited data

How the results depend on the processing

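The 10 higher calls in KO vs WT, in KO1 vs WT and in KO2 vs WT and the 10 lower calls in each rescue vs KO remained 10 under every alternative run, with highest adjusted p in KO vs WT of 4.15e-09 (PKP1). With the replicate number as a block, 10 members were higher in KO vs WT and 1, PERP, became lower in KO+CFLAR vs KO+STAMBP. The block changed no other count of members. The log2 differences of replicate 1 from replicate 2, taken within each group, correlated between groups by -0.0919 to 0.127. The numbers are therefore not taken to pair the samples. That PERP call also gave a count of 1 with DESeq2, with library size alone, with no filter on low counts and with at least 50 counts in at least 2 libraries. Members higher in KO+CFLAR vs WT ranged from 2 to 5 when each library was left out, with 2 without KO+CFLAR replicate 1 and 2 without WT replicate 2. Without the libraries labelled KO+CFLAR, chosen after seeing the data, counts of members called in the other comparisons did not change. All genes called in KO1 vs KO2 were 33 in the fit reported, 251 without a filter, 58 without KO1 replicate 2 and 20 without KO2 replicate 2; in KO+CFLAR vs KO+STAMBP they were 229, 364 with DESeq2, 780 without a filter and 27 to 313 with 1 library left out. Directions turned round for uncalled differences, some of them near 0. Those of PKP3 in the libraries labelled KO+CFLAR were larger but rested on few counts, at -0.601 against WT and -0.749 against KO+STAMBP. In KO1 vs KO2, DSG3 was 0.014 with library size alone, 0.005 without a filter, 0.001 at 50 counts and 0.005 with only the groups compared, and DSC2 was 0.001 with library size alone. With 1 library left out, PKP2 ranged from -0.012 to 0.015, DSG2 from -0.075 to 0.005, DSG3 from -0.020 to 0.006 and DSC2 from -0.051 to 0.010 there. In KO+STAMBP vs WT, PKP1 ranged from -0.250 to 0.779, PKP3 from -0.948 to 1.214 and DSG3 from -0.243 to 0.391. In KO+CFLAR vs WT, PKP2 ranged from -0.241 to 0.399, PKP3 from -1.298 to 0.465 and DSC3 from -0.018 to 0.541. In KO+CFLAR vs KO+STAMBP, PKP3 ranged from -1.346 to 0.347, DSG2 from -0.073 to 0.048 and DSC3 from -0.153 to 0.135. The shares moved with the gene length and the class used. With counts without length, PKP2 made up 39.3% and PKP3 53.2% in KO, DSG2 95.8% in KO, 87.9% in KO+STAMBP and 92.1% in KO+CFLAR, and DSC2 91.4% in KO, 83.3% in KO+STAMBP, 79.0% in KO+CFLAR and 81.8% in WT. With the longest coding transcript, chosen after seeing the data, PKP2 made up 31.3% in KO and 88.1% in KO+CFLAR, PKP3 64.1% in KO, and DSG2 95.6% in KO and 86.5% in KO+STAMBP. With PKP4 counted among the plakophilins, also chosen then, PKP2 made up 20.4% in KO, 9.41% in KO+STAMBP, 8.19% in KO+CFLAR and 7.47% in WT, and PKP3 50.4% in KO, 0.590% in KO+STAMBP, 0.369% in KO+CFLAR and 0.552% in WT. Scaling by library size alone put the median of all genes in KO vs WT at -0.218, against -0.043 with TMM. The causes of these shifts were not tested. Depth limits PKP1, PKP3 and DSG3 outside KO, with 2 to 21 counts per library.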

Other observations

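Keratins were among the genes called between the rescues and WT. Of 12 keratin and other intermediate filament genes, 5 were higher and 2 lower in KO+STAMBP than in WT (median log2 1.22, with 34.9% of all tested genes called either way), and 5 were higher and 2 lower in the libraries labelled KO+CFLAR than in WT (median log2 0.86, with 33.7% of all tested genes called). These comparisons share the WT libraries. KRT8 was at 35.6 ± 1.09 CPM in KO+STAMBP, 30.5 ± 0.0848 CPM in KO+CFLAR and 15.2 ± 0.0544 CPM in WT (SD, n = 2 libraries each), with log2 changes against WT of 1.23 ± 0.06 and 1.01 ± 0.06 (SE, edgeR adjusted p = 8.32e-10 and 6.88e-09). KRT18 was higher than in WT by 1.22 ± 0.09 in KO+STAMBP and by 0.83 ± 0.10 in KO+CFLAR on the log2 scale (edgeR adjusted p = 1.57e-07 and 1.02e-05). The 2 lower genes were VIM, with log2 changes against WT of -0.70 ± 0.03 in KO+STAMBP and -0.72 ± 0.03 in KO+CFLAR, and NES, with -0.70 ± 0.03 and -0.71 ± 0.03. In KO+CFLAR vs KO+STAMBP, 0 of the 12 were higher and 3 lower (1.09% of all tested genes were called either way): KRT6A by -1.04 ± 0.19, KRT17 by -0.70 ± 0.11 and KRT18 by -0.39 ± 0.08 (edgeR adjusted p = 0.0223, 0.00993 and 0.038). PPL, the plakin, was higher than in WT by 0.84 ± 0.13 in KO+STAMBP and by 0.84 ± 0.12 in KO+CFLAR (edgeR adjusted p = 0.00011 and 9.21e-05).

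Of 12 adherens junction genes, 2 were higher and 6 lower in KO+STAMBP than in WT (median log2 -0.18, with 18.5% of all tested genes called lower), and 2 were higher and 7 lower in KO+CFLAR than in WT (median log2 -0.20, with 17.9% of all tested genes called lower). CDH1 was at 4.23 ± 0.441 CPM in KO+STAMBP, 4.397 ± 0.83 CPM in the libraries labelled KO+CFLAR and 7.46 ± 0.39 CPM in WT, with log2 changes against WT of -0.82 ± 0.13 and -0.76 ± 0.12 (edgeR adjusted p = 0.000139 and 0.000184). The CDH1 level was thus below WT in both rescues, where JUP, DSG2 and PERP were above WT. The DSG2 excesses were small (log2 0.265 in KO+STAMBP and 0.253 in KO+CFLAR), and both calls were lost when certain single libraries were left out.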
